A study of Mus musculus with 5 samples.

Results

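The genes described here were the collagen and laminin chains on a 1-colour Agilent mouse array that was hybridized with RNA of 5 embryonic stem cell (ESC) lines. They were chosen by name, with earlier results of these data known. Every non-control probe was taken whose gene name is Col followed by a chain number or Lama, Lamb or Lamc followed by a number. The name gave 98 probes for 50 genes, of 41174 probes and 27962 gene names on the array. Of the 50 genes, 40 encode collagen chains and 10 encode laminin chains. They were placed in 3 classes, namely 9 fibrillar genes (types I, II, III, V and XI, 20 probes), 16 basement membrane genes (type IV collagen and the laminins, 33 probes) and 25 other collagens (45 probes). A further 3 chains carry another form of name in the files (Lamb1-1, Emid2 for Col26a1 and E330026B02Rik for Col6a6). These were no members, and only Lamb1-1 and Emid2 are given below.

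The study asked whether loss of ECAT11, an ESC transcript, changes ESCs. RF8 is a wild-type line of 129sv origin labelled male, and the study's methods name it as the parental line in which the gene was targeted. In the ECAT11EGFP/EGFP lines, EGFP replaces the coding region on both alleles. #620-2 (wild type) and #620-6 (ECAT11EGFP/EGFP) were of C57BL6/129sv origin and labelled female, and #757-1 and #757-2 (both ECAT11EGFP/EGFP) were of the same origin and labelled male. All 3 ECAT11EGFP/EGFP lines go back to 1 targeted RF8 clone through intercrossed heterozygous mice, and #620-2 came from the same kind of cross. Each line gave 1 array, so the lines are the replicates, and whether a line would repeat itself was not measured. All lines were grown on gelatin with LIF and serum, while the methods also name SNL fibroblast feeder layers for keeping the lines. No probe is named as ECAT11, which is not analysed here.

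Collagens are trimers wound around a glycine that recurs along each chain. Fibrillar collagens build the ropes of connective tissue and are made in bulk by fibroblasts. Type IV collagen and laminins, which are trimers of an alpha, a beta and a gamma chain, form the sheet on which epithelia rest, and they are among the first matrix proteins of the mouse embryo. The other collagens are a mixed class, with chains that link or anchor these structures, span the cell membrane, or form fibrils, filaments or networks of their own.

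Levels are given as the log2 of the background-corrected intensity minus the log2 of the array's 75th percentile, so that 0 is the level of the 75th percentile and 1 unit is a 2-fold difference. Between 51.6% and 65.9% of probes were well above background, the scanner software's own flag. RF8, #620-2 and #620-6 lay on slide 1 and the #757 lines on slide 2, where the lowest signal well above background was higher (-4.50 and -4.23, against -6.22 to -5.91 on slide 1). A chain below those limits has only an upper bound. The ESC markers Pou5f1, Sox2 and Nanog were well above background on every array, as were all 11 genes of an ESC list. The Y-linked Ddx3y, Eif2s3y and Uty were well above background in RF8 and the #757 lines and not in the #620 lines, as the sex labels have it, while 1 of 2 probes of Zfy1 was also above background in the #620 lines (-4.56 and -4.24). With 1 array per line, the number of arrays limits the precision.

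Of the 50 chains, 28 had a probe well above background in all 5 lines, or 56% against 50.5% of all genes. By class, it held for 8 of 9 fibrillar genes, for 10 of 16 basement membrane genes and for 10 of 25 other collagens. Another 15 chains were above background in some lines, and 7 in none (Col10a1, Col12a1, Col15a1, Col19a1, Col24a1, Lama2 and Lamc3). By line, 39 chains were detected in RF8, 37 in #620-2, 38 in #620-6, 32 in #757-1 and 28 in #757-2, and the lower counts fell on slide 2. Col10a1 is a chain of growth plate cartilage and Lama2 is the laminin alpha chain of muscle.

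Probes of the same chain often disagreed in brightness. Of 34 chains with several probes, 10 had a probe above background in all lines and another above it in none, and in only 11 of the 50 chains was every probe above background throughout. The brightest probe was the one nearest the 3′ end of the gene in 22 of the 34 chains (64.7%), much as in all 8443 genes with several probes (61.8%). Each chain is therefore described by its brightest probe, and only some of the other probes are named. The 10 chains with a probe above background in all lines and another in none were Col1a2, Col2a1, Col3a1, Col4a4, Col4a6, Col5a3, Col11a1, Col13a1, Col16a1 and Lama3. A second probe of Lama1, for example, was above background on slide 1 alone (-4.70 to -3.60). A second probe of Col27a1, a fibril-forming chain counted here with the other collagens, peaked at -2.28 in #757-1 against -5.69 to -4.20 elsewhere, while its brightest probe lay between -4.54 and -3.87. An unbroken glycine repeat, with a GG at every ninth base along the 60 bases, was found in 3 of the 98 probes. Repeats that cover only part of a probe were not counted. These 3 probes were also the only ones of all 41174 with that pattern. They are shown because they print the collagen repeat itself. The capitals mark the GG of the recurring glycine codons, and the mm7 span of each probe is given with its chain:
Col5a1, chr2:27994034-27996457: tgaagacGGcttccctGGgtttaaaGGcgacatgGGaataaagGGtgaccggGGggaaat
Col5a3, chr9:20655471-20656200: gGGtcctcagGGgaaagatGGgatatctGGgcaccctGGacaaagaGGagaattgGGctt
Col11a2, chr17:32131401-32131567: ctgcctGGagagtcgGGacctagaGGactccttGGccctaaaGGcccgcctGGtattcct

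The repeat probe of Col5a1 was well above background in #620-6 alone (-6.10), whereas the brighter Col5a1 probe was above it in all 5 lines. The repeat probe of Col5a3 was above background in no line, again beside a probe that was above it in all. The repeat probe of Col11a2 was above background in the 3 lines of slide 1, at -5.33 in RF8, -5.34 in #620-2 and -5.50 in #620-6, and the other Col11a2 probe was as dim. Types V and XI are the minor chains that start and size fibrils of types I and II.

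The chains varied widely from line to line. Among member probes above background in all lines, 19 of 32 (59.4%) spanned more than 2-fold between the lowest and the highest line, against 23.5% of the 20610 such probes on the array, and 8 (25%) spanned more than 4-fold, against 4.93%. Dim probes varied more, and the members' share was the higher one at each level. Below a mean level of -2 the share over 2-fold was 10 of 11 against 38.8% of all probes, between -2 and 0 it was 7 of 13 against 28.3%, and above 0 it was 2 of 8 against 13.5%. These shares are descriptions, since probes of a chain are not independent.

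The spread lay in 2 of the 3 classes. The range over the lines exceeded 2-fold for 8 of 9 fibrillar probes and 8 of 11 probes of other collagens, but for 3 of 12 basement membrane probes, and the median range was 1.59, 1.33 and 0.59 log2 units in that order, against 0.60 over all probes. RF8 held the highest value for 13 of the 32 probes (40.6%, against 25.1% of all probes), and #757-2 for none (against 12.5% of all probes). Between lines, the share of member probes more than 2-fold apart was highest for RF8 against #620-6, at 19 of 49 (38.8%, against 14.2% of all probes), and lowest for #757-1 against #757-2, at 3 of 32 (9.38%, against 1.82%). #620-2 and #620-6, which share slide, origin and sex label and differ in genotype, had 7 of 49 (14.3%, against 7.09%).

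**Figure D1:**
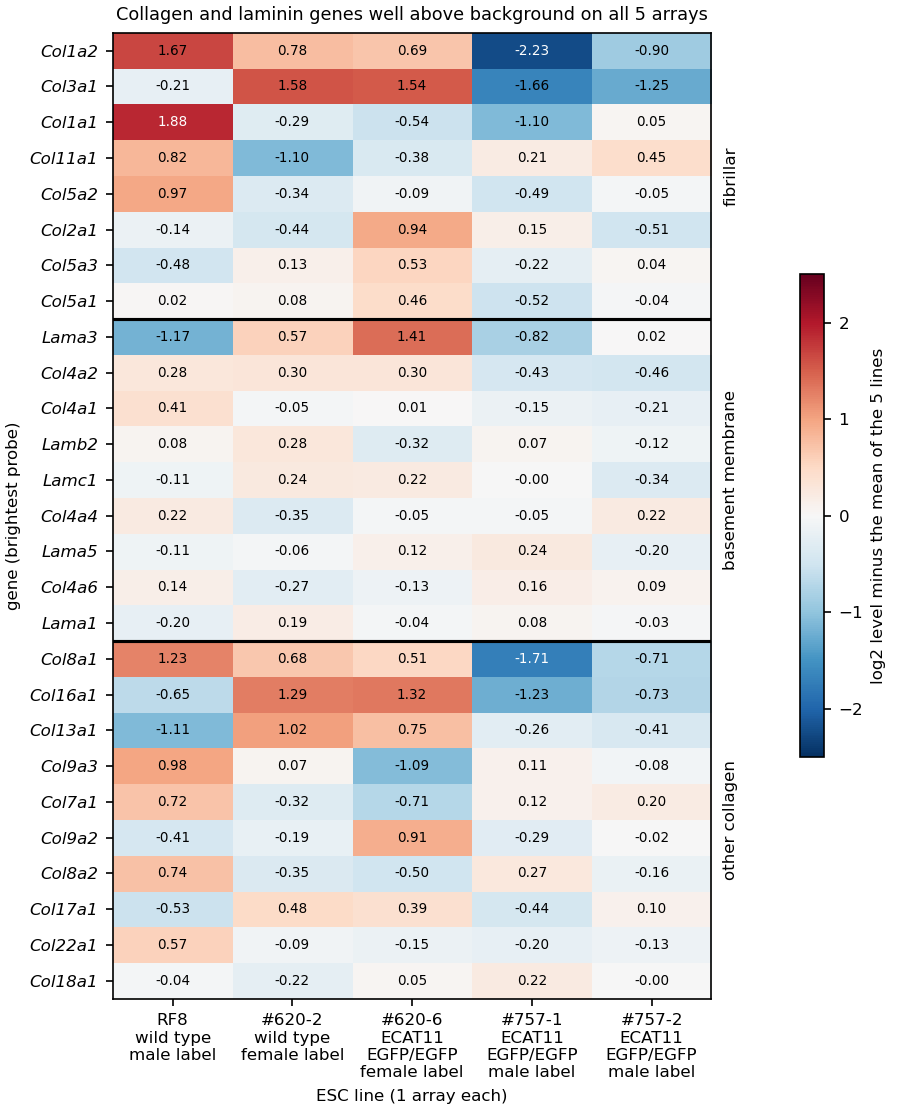
Level of each chain well above background on all 5 arrays, as the log2 level of its brightest probe minus the mean of its 5 lines (colour and number), for 27 of the 28 such genes in rows, grouped by class, and the 5 lines in columns. Type I and type VIII collagen stood highest in RF8 and types III and XVI in the #620 lines, while most basement membrane chains stayed close to their mean.

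Among the fibrillar genes, type I collagen, the main protein of bone, skin and tendon, read highest in RF8. Col1a1, the alpha-1 chain (a probe with 10 spots at chr11:95060800-95060859 of mm7), lay at 2.97 in RF8, 0.80 in #620-2, 0.56 in #620-6, -0.01 in #757-1 and 1.15 in #757-2. RF8 thus stood clear of the other 4 lines, which lay closer together. A second Col1a1 probe had the same order at its top, with -1.31 in RF8 and between -4.27 and -2.93 in the other lines. Col1a2, its partner chain (chr6:4493505-4493564), lay at 2.51 in RF8, 1.62 in #620-2, 1.54 in #620-6, -1.38 in #757-1 and -0.05 in #757-2. Here all lines of slide 1 lay above both lines of slide 2, and the highest and lowest lines were 14.9-fold apart.

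Col3a1, which forms fibrils with type I in vessels and soft tissue, did not follow it. Its brightest probe (chr1:45585395-45585454) lay at -2.89 in RF8, -1.10 in #620-2, -1.14 in #620-6, -4.34 in #757-1 and -3.93 in #757-2. The #620 lines had nearly the same value and stood above the other 3 lines. The 2 other Col3a1 probes were above background in no line.

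Col11a1, a minor chain of cartilage fibrils, lay at -1.64 in RF8, -3.56 in #620-2, -2.84 in #620-6, -2.25 in #757-1 and -2.01 in #757-2. The #620 lines, highest for Col3a1, were lowest here. The remaining fibrillar chains spanned less, from 1.96-fold for Col5a1 through 2.02-fold for Col5a3 and 2.72-fold for Col2a1, the cartilage chain, to 2.76-fold for Col5a2. Col2a1 was highest in #620-6 by both of its measured probes (-0.56 and -0.55, against -1.35 or less in the other lines by the first and -1.50 or less by the second).

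The basement membrane chains were the steadiest. Lamc1, the gamma chain that most laminins share, lay between 3.80 and 4.38. Lama5, an alpha chain of the laminin that ESCs and epithelia secrete, lay between 2.36 and 2.80, and Lama1, the alpha chain of the early embryo, between -1.52 and -1.13. Lamb1-1, the matching beta chain that is outside the name rule, lay between 1.84 and 2.58. Lamb2, an alternative beta chain, spanned 1.51-fold. Chains of all 3 kinds that make up a laminin trimer were therefore above background in every line.

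Type IV collagen was as steady. Col4a1 and Col4a2, which are transcribed from neighbouring starts and join in the common type IV network, spanned 1.53-fold and 1.7-fold. Col4a1 lay at 0.15 in RF8 and between -0.47 and -0.25 in the other lines, and Col4a2 lay between -1.02 and -1.0 on slide 1 and between -1.76 and -1.73 on slide 2. Col4a4, a chain of the kidney's filter, spanned 1.48-fold, and Col4a6 1.35-fold. The partners of Col4a4 were dim, as Col4a3 was above background in #757-1 alone (-4.02) and Col4a5 in RF8 alone (-5.81).

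Lama3 and Lamb3, an alpha and a beta chain of the laminin that anchors skin, varied more and did not move together. Lama3 lay at -3.81 in RF8, -2.06 in #620-2, -1.23 in #620-6, -3.45 in #757-1 and -2.62 in #757-2, with the #620 lines highest. Lamb3 lay at -3.68 in RF8, -5.19 in #620-2, -4.93 in #620-6, -4.33 in #757-1 and -4.55 in #757-2, where it was not well above background, with the #620 lines lowest. Lama4, the alpha chain of vessels, was above background on slide 1 only (-4.28 to -4.10), at a level close to the lowest that slide 2 could show.

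Among the other collagens, Col18a1, a proteoglycan of basement membranes from which endostatin is cut, was as steady as the laminins, between 5.02 and 5.46 by its brighter probe and between 3.52 and 4.0 by the other. Col8a1, a short-chain network collagen, followed Col1a2 in its order. It lay at 0.40 in RF8, -0.16 in #620-2, -0.33 in #620-6, -2.55 in #757-1 and -1.54 in #757-2. Its partner Col8a2 was also highest in RF8 (-2.97) but lay lowest in #620-6 (-4.21).

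Type VI collagen, which forms beaded filaments around cells from 3 different chains, gave the widest range of all members. Col6a3 (chr1:90671098-90671157) lay at -6.49 in RF8, -1.83 in #620-2, -0.78 in #620-6, -6.28 in #757-1 and -6.35 in #757-2. It was well above background in the #620 lines and in none of the other 3. Col6a1 (chr10:76364050-76364109) lay at -5.17 in RF8, -2.84 in #620-2, -2.70 in #620-6, -6.59 in #757-1 and -6.29 in #757-2, and was not above background on slide 2. Col6a2, the third chain, did not share this order, with -4.42 in #620-2 and between -5.37 and -5.09 elsewhere, where it was above background in RF8 and #620-6.

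Col16a1, a collagen that decorates fibrils, lay at -2.33 in RF8, -0.39 in #620-2, -0.35 in #620-6, -2.91 in #757-1 and -2.41 in #757-2. Like Col3a1, it was high in the #620 lines alone. Col13a1, a collagen of the cell membrane, lay at -4.05 in RF8, -1.92 in #620-2, -2.19 in #620-6, -3.20 in #757-1 and -3.35 in #757-2. Col17a1, a membrane collagen of hemidesmosomes, spanned 2.02-fold with the #620 lines highest. Col7a1, the anchoring fibril chain that binds the laminin of skin, was lowest in those lines (-0.73 in #620-2 and -1.11 in #620-6, against -0.29 to 0.31).

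Col9a2 and Col9a3, which coat type II fibrils in 1 trimer, ran in opposite directions in #620-6. Col9a2 was highest there (0.81, against -0.52 to -0.12 in the others) and Col9a3 lowest (-4.96, against -3.95 to -2.89). Col22a1 spanned 1.71-fold. Emid2, the gene now named Col26a1 and outside the name rule, spanned 5.64-fold with its highest value in #620-6 (-1.22).

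Of the 15 chains above background in some lines only, those with the widest spread of readings after Col6a3 were Col20a1, Col4a3, Col9a1, Col6a1, Col28a1, Lamb3 and Lama4. This order includes readings below background and is not one of measured levels. Col20a1 lay at -4.82 in #620-2 and -2.55 in #620-6 and was not above background in the other 3 lines. Col9a1, the third type IX chain, was above background in #757-1 alone (-3.45), as Col4a3 was, and Col28a1 in #620-2 alone (-5.57). Below background the reading itself could differ between slides, as in chains detected nowhere. Col10a1 read -8.20 in RF8 and -6.44 in #757-2. Col19a1, with the widest range of these chains (3.19 units), read -8.21 in #620-2 and -5.02 in #757-2. Such a reading therefore gives only an upper bound. Where a fitted log2 fold change below includes such readings, the lines in which the probe was measured are given.

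**Figure D2:**
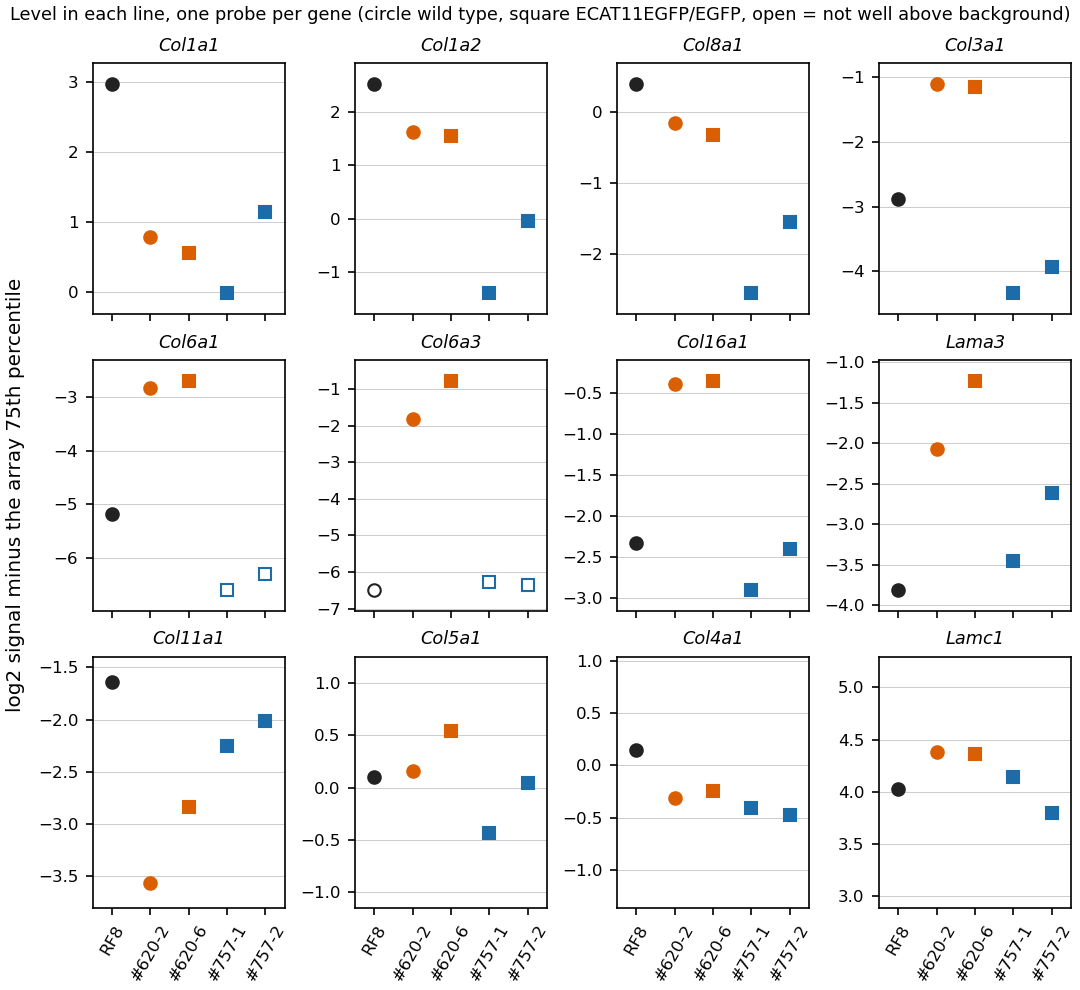
Log2 level minus the array's 75th percentile (vertical axis) in each of the 5 lines (horizontal axis) for 12 chains, 1 probe each and 1 array per line, with circles for wild type, squares for ECAT11EGFP/EGFP, and open symbols where the probe was not well above background. RF8 is highest for Col1a1, Col1a2 and Col8a1, the #620 lines are highest for Col3a1, Col6a1, Col6a3, Col16a1 and Lama3, and Col4a1 and Lamc1 stay within 1 unit. Vertical scales differ between panels.

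The first comparison asked whether the chains differed with genotype, 3 ECAT11EGFP/EGFP lines against 2 wild-type lines. None of the 64 member probes kept for testing was called at an adjusted p under 0.05 with more than a 2-fold change (limma), where 0.00345% of all 28972 probes were called, a single probe. The smallest adjusted p of a member was 0.287. At an unadjusted p under 0.05 there were 6 member probes, or 9.38%, against 7.61% of all probes, 2 of them higher (4.03% of all probes) and 4 lower (3.59%) in ECAT11EGFP/EGFP lines. The 2 groups did not overlap for 18 member probes (28.1%), against 23.6% of all probes.

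The class medians of the log2 fold change were -0.10 for 14 fibrillar probes, -0.30 for 21 basement membrane probes and -0.29 for 29 probes of other collagens, against -0.02 over all probes. None of the 3 negative signs was stable, since with no filter the medians were 0.27, 0.023 and 0.15 in that order. The last was also 0.03 after normexp background correction and 0.18 with the slide as a block. Both #757 lines lie on slide 2 and no wild-type line does, so genotype and slide can be separated only through #620-6.

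All 6 were dim probes, with no value above -3.99. Lama2 had the smallest unadjusted p (0.000419) with a probe above background on no array, so it gives no fold. Col6a3 was at least 1.11-fold and Col4a6 at least 1.2-fold lower in the ECAT11EGFP/EGFP lines by dim second probes. Both probes were above background in the 2 wild-type lines alone. The slide 2 limits (-4.50 and -4.23) lay above both wild-type levels of Col6a3 (-5.09 and -4.57) and that of Col4a6 in #620-2 (-5.44). Both bounds therefore rest on #620-6, since the #757 lines could not have shown such levels. The brighter probe of Col4a6 had a log2 fold change of 0.10 ± 0.20 (SE), and that of Col6a3 was measured in the #620 lines alone. The repeat probe of Col5a1 shown above had the higher readings (unadjusted p = 0.0155, limma), but with #620-6 the only line above background it gives no fold, and the brighter probe gave -0.08 ± 0.32 (SE). Col11a2 gave -0.58 ± 0.19 (SE) by its second probe and -0.11 ± 0.14 (SE) by its repeat probe, both measured in the 3 lines of slide 1 only.

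Both probes of Col8a1 gave values of the same sign, at -1.37 ± 0.51 (SE, unadjusted p = 0.0473) by the dimmer, which was measured on slide 1 only, and -1.59 ± 0.70 (SE, unadjusted p = 0.0761) by the brighter probe, with adjusted p of 0.649 and 0.721 (limma). Within slide 1, #620-6 lay 0.45 units below the mean of the 2 wild-type lines by the brighter probe. For Col1a2 the genotype value was -2.03 ± 0.93 (SE, adjusted p = 0.731), and within slide 1 it was -0.53. For Col1a1 it was -1.32 ± 0.75 (SE, adjusted p = 0.797), and -1.33 within slide 1, where the mean of the wild-type lines contains RF8.

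**Figure D3:**
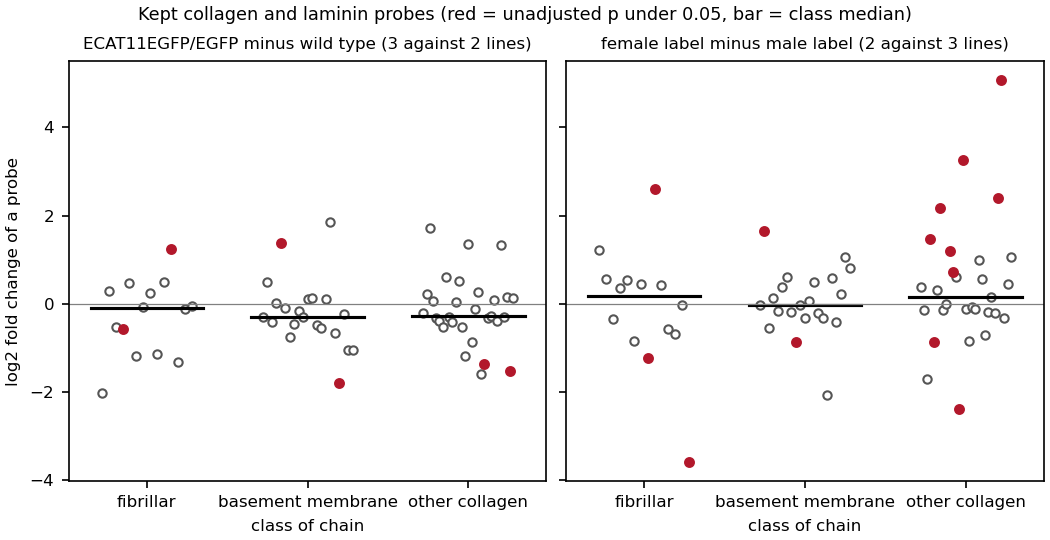
Log2 fold change (vertical axis) of each of the 64 kept member probes by class of chain, for ECAT11EGFP/EGFP minus wild type (left, 3 against 2 lines) and for female minus male label (right, 2 against 3 lines), with red points at an unadjusted p under 0.05 and a bar at the class median. The medians lie between -0.30 and 0.17, and the widest points are those of Col6a3 and a dim Col1a1 probe on the right.

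The second comparison set the 2 lines labelled female (#620-2 and #620-6) against the 3 labelled male. These lines also share the number 620, and both lie on slide 1. The labels do not say what the number marks, so sex and anything else shared under it cannot be told apart. One member probe was called at an adjusted p under 0.05 with more than a 2-fold change, against 0.356% of all probes (103 calls, 82 of them, or 0.283% of all probes, higher in the #620 lines). At an unadjusted p under 0.05 there were 14 of 64 member probes (21.9%), against 18% of all probes, 9 of them higher (9.69% of all probes) and 5 lower (8.33%). The 2 groups did not overlap for 22 member probes (34.4%), against 38.9%. These shares lie near those of all probes. The class medians were 0.17 for fibrillar, -0.03 for basement membrane and 0.15 for other collagen probes, against -0.01 over all probes.

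The called probe was the bright probe of Col6a3. Its mean was -1.30 ± 0.74 (SD, n = 2) in the lines labelled female and -6.37 ± 0.11 (SD, n = 3) in the others, where it was not well above background. Col6a3 therefore rose by at least 12.2-fold, with an adjusted p of 0.0344 (limma). The call was lost without each of the 5 lines in turn (adjusted p from 0.0675 to 0.166), with the slide as a block (0.0688) and with genotype as a covariate (0.0558), while the difference itself stayed between 4.54 and 5.59 units on leaving out a line. After normexp correction it was 2.32 units (adjusted p = 0.0302), which is less than the bound given here. Within slide 1 the difference was 5.18 units. A second Col6a3 probe, above background in RF8 (-5.09) and #620-2 (-4.57) only, did not share this pattern, and the third was above background in no line, so the chain's probes disagree.

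The next largest members had the same direction without passing the adjusted threshold. Col6a1 had a log2 fold change of 3.25 ± 0.47 (SE, adjusted p = 0.0867), but RF8 was the only male-labelled line in which it was measured, so this value rests in part on upper bounds, and after normexp correction it was 1.15 (adjusted p = 0.0164). Col16a1, measured in all 5 lines, had means of -0.37 ± 0.03 (SD, n = 2) and -2.55 ± 0.31 (SD, n = 3), a log2 fold change of 2.18 ± 0.22 (SE) and an adjusted p of 0.0602. It was called under 5 of the other settings, among them when only probes above background on all arrays were tested (adjusted p = 0.0479). Col3a1 had means of -1.12 ± 0.03 (SD, n = 2) and -3.72 ± 0.75 (SD, n = 3), 6.05-fold apart (adjusted p = 0.108). Within slide 1, the #620 lines lay above RF8 by 2.40 units for Col6a1, 1.96 for Col16a1 and 1.77 for Col3a1.

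Of the remaining probes at an unadjusted p under 0.05, those with the higher value in the #620 lines were Col13a1 (1.48 ± 0.31, SE), Lama3 (1.65 ± 0.46, SE), both probes of Col17a1 (0.73, and 1.19 by a probe measured on slide 1 only) and Col20a1, which was at least 2.34-fold higher. The Col20a1 level in #620-2 (-4.82) lay below the slide 2 limits, so against the #757 lines this bound rests on #620-6. The remaining probes with the lower value were Col11a1 (-1.24 ± 0.31, SE), Lamb3 (-0.87 ± 0.31, SE, not measured in #757-2), Col7a1 (-0.86 ± 0.26, SE), a second probe of Col23a1 and a dim probe of Col1a1. The Col23a1 probe was above background in RF8 alone (-4.76), so it gives no fold between the groups. The dim Col1a1 probe, near the 5′ end of the gene (chr11:95047002-95047061), was likewise above background in RF8 alone, at -4.09 (adjusted p = 0.0607, and 0.0403 with the slide as a block), while the brightest Col1a1 probe gave -0.69 ± 0.91 (SE). Lamb1-1, outside the name rule, gave -0.50 ± 0.15 (SE, adjusted p = 0.209).

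The 250 bases before the RefSeq start (GRCm38.p6) are shown for Col6a1 and Col6a3, which were high together in the #620 lines, and for Col1a2. Col1a2 was highest in RF8 (2.51), but its levels in the #620 lines (1.62 and 1.54) lay above those of both #757 lines (-1.38 and -0.05). Capitals mark 3 motifs searched on both strands, the TATA box (TATAAA), the CCAAT box (CCAAT) and the GC box (GGGCGG):
Col6a1, chr10:76726045-76726294, minus strand: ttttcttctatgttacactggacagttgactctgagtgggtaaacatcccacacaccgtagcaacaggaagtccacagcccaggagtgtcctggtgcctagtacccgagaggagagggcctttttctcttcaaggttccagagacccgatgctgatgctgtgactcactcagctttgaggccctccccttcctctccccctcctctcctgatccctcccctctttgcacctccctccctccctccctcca
Col6a3, chr1:90843972-90844221, minus strand: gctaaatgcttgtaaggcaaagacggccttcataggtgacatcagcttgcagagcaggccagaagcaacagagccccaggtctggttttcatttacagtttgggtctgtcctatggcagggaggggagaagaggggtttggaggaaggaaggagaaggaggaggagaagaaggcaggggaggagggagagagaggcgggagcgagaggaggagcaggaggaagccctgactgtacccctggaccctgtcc
Col1a2, chr6:4505368-4505617, plus strand: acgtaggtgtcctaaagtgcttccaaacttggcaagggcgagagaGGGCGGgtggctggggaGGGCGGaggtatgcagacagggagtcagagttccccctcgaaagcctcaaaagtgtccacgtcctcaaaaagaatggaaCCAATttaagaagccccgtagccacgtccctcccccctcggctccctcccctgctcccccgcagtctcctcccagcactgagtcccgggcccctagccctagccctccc

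Neither type VI promoter held any of the 3 motifs, while that of Col1a2 held 2 GC boxes and a CCAAT box. Of the 50 chains, 36 had a promoter in the RefSeq table. A TATA box stood in 5 of them (13.9%, against 13% of 27025 promoters), a CCAAT box in 11 (30.6%, against 34.5%) and a GC box in 19 (52.8%, against 32.9%). These are matches of letters in a window and not sites at which a factor was seen.

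Genes that make, bind or accompany collagens were read from 5 lists, also chosen with earlier results of these data known. By sex label, 0.356% of all probes were called, and 9.69% were higher and 8.33% lower in the #620 lines at an unadjusted p under 0.05. By genotype, 4.03% of all probes were higher and 3.59% lower at that threshold. Of 28 genes for collagen modification and cross-linking (35 probes kept), no probe was called in either comparison. At an unadjusted p under 0.05, 7 probes were higher and 2 lower in the #620 lines. Lox, the enzyme that starts collagen cross-links, lay at -5.59 in RF8, -3.25 in #620-2 and -3.20 in #620-6 and was not above background on slide 2. Its fitted log2 fold change of 3.0 ± 0.36 (SE, adjusted p = 0.0708) rests in part on those upper bounds, and within slide 1 the difference was 2.36. Its relative Loxl1 was measured in all lines and gave 1.80 ± 0.32 (SE, adjusted p = 0.109), and Loxl3 was at least 1.17-fold higher. The Loxl3 bound rests on RF8, since its levels in the #620 lines (-4.52 and -4.84) lay below the slide 2 limits (-4.50 and -4.23). Leprel2, Adamts2, Pcolce and a dim probe of Glt25d2 also had higher values (0.63, 0.72 without a measured level in #757-2, 0.59 and an unadjusted p of 0.044). Adamts3, measured in RF8 alone (unadjusted p = 0.00295, limma), and a second probe of Bmp1 (-0.87) had lower ones.

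In the genotype comparison 2 of these 35 probes had an unadjusted p under 0.05, both lower. Serpinh1, the chaperone of procollagen, lay at 3.75 in RF8, 3.84 in #620-2, 2.65 in #620-6, 2.99 in #757-1 and 2.97 in #757-2. Fkbp10, a prolyl isomerase that acts with it, lay at 3.54, 2.96, 1.44, 1.96 and 1.98 in the same order of lines. For both, each ECAT11EGFP/EGFP line lay below each wild-type line, on slide 1 as well, with log2 fold changes of -0.92 and -1.45 and an adjusted p of 0.414 for each (limma).

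Of 12 basement membrane partners (14 probes kept), Fbln2, which binds laminin and nidogen, was called in the comparison by sex label. It lay at -1.59 in RF8, 2.33 in #620-2, 2.46 in #620-6, -1.87 in #757-1 and -1.54 in #757-2, a log2 fold change of 4.06 ± 0.16 (SE, adjusted p = 0.00997). The call was lost without each line other than RF8 (adjusted p up to 0.166), with genotype as a covariate and by the methods' t-test. Nid1, the link between laminin and type IV collagen, had 1.09 ± 0.24 (SE, adjusted p = 0.139), and Npnt had a higher value by 1 dim probe (unadjusted p = 0.0479). The other members at an unadjusted p under 0.05 had lower values in the #620 lines, namely both probes of Frem2 (-1.70 and -1.91), Fras1 (-1.49) and Agrin (-0.67). No probe of the list had an unadjusted p under 0.05 for genotype.

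Of 14 matrix receptors (24 probes kept), none was called. Ddr2, a kinase receptor for fibrillar collagen, lay at -3.75 in RF8, -1.17 in #620-2, -0.91 in #620-6, -3.92 in #757-1 and -3.04 in #757-2 (log2 fold change 2.53 ± 0.32, SE, adjusted p = 0.0734), and its second probe had the same sign. Both probes of Itgb4, the integrin chain that binds the laminin of skin, gave 0.64 and 0.65. Ddr1 (-0.44) and Itgb1 (-0.73) had lower values. By genotype, 4 probes of Itga1 and 1 of Itga7 had higher values at an unadjusted p under 0.05, most of them near background, and Itga11, a fibrillar collagen receptor, gave -1.60 (adjusted p = 0.567) without a measured level on slide 2.

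Several markers of other cells were called as higher in the #620 lines too. Of the 11 ESC genes, Klf4 (1.86), Eras (1.26) and a second probe of Dppa5 (0.71) had higher values there at an unadjusted p under 0.05 and none a lower one, without a call, and by genotype Fbxo15 had a higher value (1.23). Of 13 fibroblast markers (21 probes kept), 4 probes were called in the comparison by sex label, all higher, against 0.356% of all probes called. At an unadjusted p under 0.05, 7 had higher values (9.69% of all probes) and 2 lower ones (8.33%). S100a4 lay at -0.07 in RF8, 5.61 in #620-2, 5.70 in #620-6, -1.67 in #757-1 and -1.41 in #757-2 (6.70 ± 0.53, SE, adjusted p = 0.041). Prrx1, a factor of limb and connective tissue mesenchyme, was called by 3 probes and lay by the brightest at -5.51, -2.16, -2.07, -6.27 and -6.23 in the same order, the last 2 not above background. These 4 calls, too, were lost without each line other than RF8, with genotype as a covariate and by the methods' t-test. Those of S100a4 and of the brightest Prrx1 probe were also lost with no filter, and that of another Prrx1 probe after quantile normalization. Dcn (2.45), Thy1 (1.68) and Twist1 (0.92) had higher values without a call, and both probes of Tagln had lower ones (-2.04 and -2.24).

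The summed level of the fibroblast list, as multiples of the 75th percentile, was 70.1 in #620-2 and 69.3 in #620-6, and 50.7, 34.3 and 28.6 in RF8, #757-1 and #757-2. S100a4 alone made up 48.7 and 51.8 of the sums in #620-2 and #620-6. Without it the order turned, with 21.4 and 17.5 in the #620 lines and 49.8, 34 and 28.2 in RF8, #757-1 and #757-2. Of its members, 12 were above background in each #620 line, against 11 in RF8, 9 in #757-1 and 10 in #757-2. Fap was above background in no line, and Postn lay between -4.37 and -3.62. Acta2 lay between 2.96 and 3.13 by its brightest probe but between 0.60 and 2.51 by a second one, with RF8 highest. By genotype, Pdgfrb (-2.53, not measured in #757-1), Fbn1 (-0.67) and that second probe of Acta2 (-1.14) had lower values and a dim Acta2 probe, measured in RF8 and #757-1 only, a higher one, none of them called.

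Of 12 endoderm markers (16 probes kept), 2 were called as higher in the #620 lines, against 0.283% of all probes. By its brightest probe, Pdgfra was above background in those lines only (-1.99 and -1.95) and rose by at least 7.67-fold (adjusted p = 0.00997, limma). Under the other settings its difference fell as low as 1.80 units, which is less than this bound. A second Pdgfra probe was above background in #620-2 alone (-3.10). The brighter Sox17 probe lay at -4.99 in RF8, -2.65 in #620-2 and -3.0 in #620-6 and was not above background on slide 2 (adjusted p = 0.0361, limma). The Sox17 call was lost with the slide as a block (adjusted p = 0.0737), after normexp correction and without each of the 5 lines, and the Pdgfra call without each line other than RF8. Both were lost with genotype as a covariate, and the Sox17 call also with no filter and by the methods' t-test. Sox7, Gata6 and Cubn had higher values (2.32, 1.6 and 1.87, the last not measured in #757-2). In all, 7 probes had an unadjusted p under 0.05 in that direction (9.69% of all probes) and none in the other (8.33%). Whatever their p, 12 of the 16 probes had higher values in the #620 lines and 4 had lower ones. Those 4 were both probes of Pthr1 (-0.94 and -0.95), Thbd (-0.77) and Amn (-0.12). Gata4 (0.25) and Dab2 (0.19) differed little. By genotype Thbd gave 1.12 and Dab2 -0.51, neither called. The summed level of the list lay between 1.72 and 3.17 in all lines, with RF8 lowest and #620-2 highest. Pdgfra is also a marker of mesenchyme. The part of such cells in the values of Col3a1, Col6a1, Col6a3 and Col16a1 was not tested, and in these bulk samples more cells of a type and more RNA per cell cannot be told apart.

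**Figure D4:**
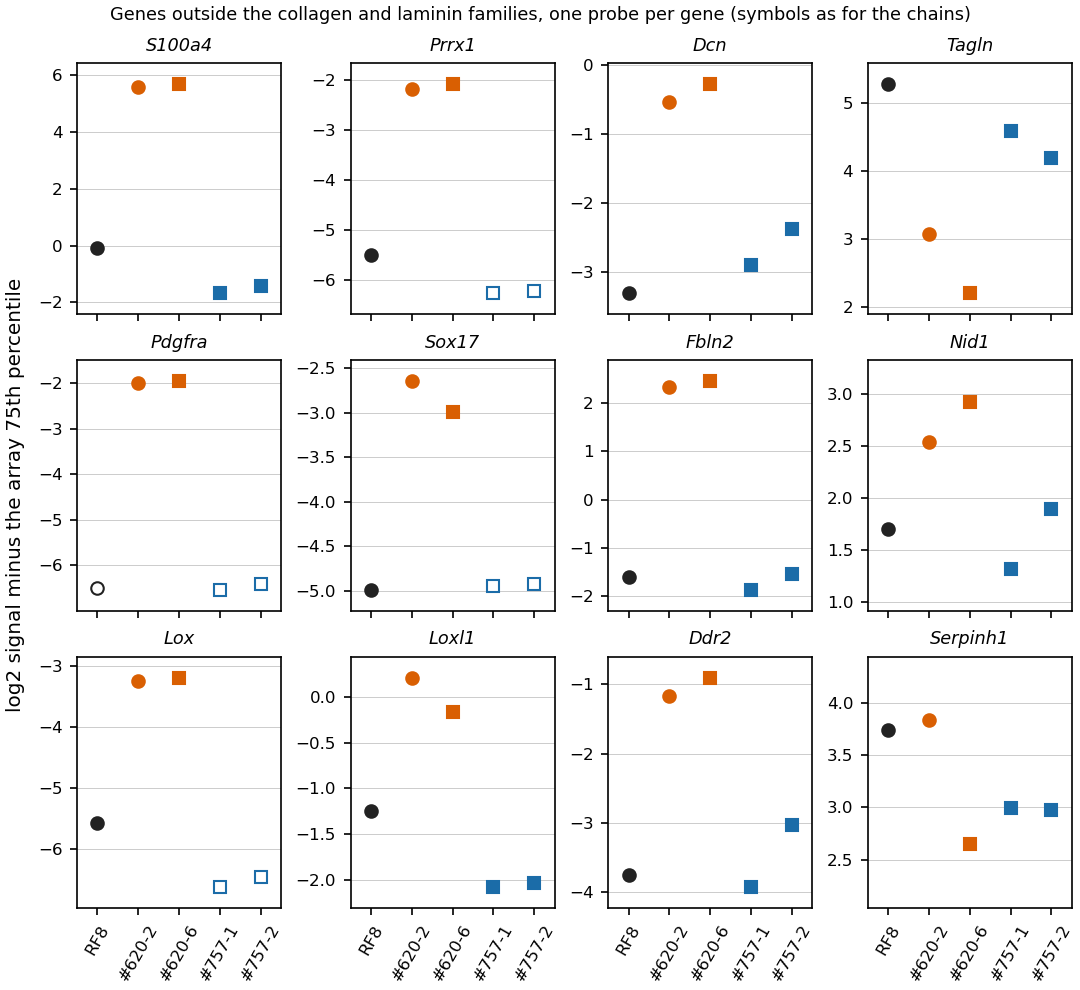
Log2 level minus the array's 75th percentile (vertical axis) in each of the 5 lines (horizontal axis) for 12 genes outside the collagen and laminin families, 1 probe each and 1 array per line, with circles for wild type, squares for ECAT11EGFP/EGFP, and open symbols where the probe was not well above background. The #620 lines are highest for S100a4, Prrx1, Dcn, Pdgfra, Sox17, Fbln2, Nid1, Lox, Loxl1 and Ddr2 and lowest for Tagln, and the 3 ECAT11EGFP/EGFP lines are lowest for Serpinh1. Vertical scales differ between panels.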

How the data were processed

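The authors scanned 5 one-colour (Cy3) Agilent arrays, 1 per line, and deposited spot intensities from Feature Extraction, with the mean, the local background and a background-corrected intensity. They also deposited a table of log2 values, scaled to each array's 75th percentile and shifted by a constant per probe, which was used as an alternative. Here control spots (1639 of 45018) were left out, marked spots (0.335%) were set missing, intensities were divided by the array's 75th percentile, and log2 values of spots of a probe were averaged. The filter kept 28972 probes that were Present (positive, well above background, neither saturated nor outlying) in 1 line or more. The tests were moderated limma fits (version 3.58.1, R 4.3.3) on these, adjusted by Benjamini-Hochberg. A probe was called at adjusted p under 0.05 if its fold also exceeded 2. For lower bounds, each dim array was set to the probe's own signal or to that array's detection limit, whichever was higher. P-values measure the spread between lines. The code was tested on simulated data.

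Members and lists were chosen with earlier results of these data known. Named were chains above background on all arrays, members at an unadjusted p under 0.05, the 8 widest of those above background in some lines, and list genes at an unadjusted p under 0.05. Probe positions are on mm7, per the file headers, without gene models, so exons are not given. Alternatives were normexp correction (offset 50), quantile normalization, the deposited table, other filters, marked spots kept, slide as a block, a variance trend, sex label or genotype as a covariate, the methods' t-test, members by updated symbol, 1 probe per gene, and leaving out each line. Testing only probes above background on all 5 arrays was added after seeing the data. One member gene is counted throughout but not reported here by name. Figures used matplotlib 3.10.9.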

Additional observations from a re-analysis of the deposited data

Results flagged for a closer look

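The genotype difference was taken within each sex label, as #620-6 minus #620-2 and as each #757 line minus RF8, over the member probes well above background on all arrays. For fibrillar probes its median was 0.38 in the lines labelled female and -0.61 and -0.37 in those labelled male. For basement membrane probes it was 0.032, against -0.14 and -0.21. The signs were opposite in both classes, but the lines labelled female gave a single pair, and their basement membrane median of 0.032 was small. The difference was not tested, and in the lines labelled male both the slide and the origin change together with the genotype.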

How the results depend on the processing

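No member was called for genotype under any alternative. The 6 member probes at an unadjusted p under 0.05 for genotype became 1 after normexp correction or with the brightest probe of each gene, 3 with probes Present on at least 3 arrays, 14 with sex label as a covariate and 0 among probes above background on all arrays, and 4 to 13 on leaving out a line (12 without #620-2 and 13 without #620-6); the methods' t-test called no member at its threshold. The fibrillar genotype median of -0.10 was 0.27 with no filter and -0.32 with either the stricter filter or the sex label as a covariate, and -0.35 to -0.028 on leaving out a line. The basement membrane median of -0.30 was -0.13 after normexp, 0.023 with no filter, -0.17 with the slide as a block or with probes above background on all arrays, -0.11 with the brightest probes, and -0.48 to -0.24 on leaving out a line. The median of other collagens, -0.29, was 0.028 after normexp, 0.15 with no filter, 0.18 with the slide as a block and -0.26 to -0.023 on leaving out a line.

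For the sex label, the 1 called member became 4 after normexp (Col3a1, Col6a1, Col6a3 and Col16a1), 2 after quantile normalization or with a variance trend (Col6a3 and Col16a1), and 0 with no filter, with genotype as a covariate or by the methods' t-test, and lay between 0 and 1 on leaving out a line. With the stricter filter, or with probes above background on all arrays, Col16a1 was called in place of Col6a3; with the slide as a block it was a dim Col1a1 probe, and without RF8 it was Col6a1. The 14 probes at an unadjusted p under 0.05 were 25 with the slide as a block and 10 to 20 on leaving out a line. The fibrillar median of 0.17 was -0.040 after normexp, -0.63 with no filter, 0.39 with the stricter filter, 0.44 with probes above background on all arrays, 0.42 with the brightest probes and -0.18 to 0.42 on leaving out a line. The basement membrane median lay between -0.036 and 0.18 on leaving out a line. The median of other collagens, 0.15, was 0.0062 after normexp, 0.37 after quantile normalization, -0.20 with no filter, 0.34 with the stricter filter, -0.042 with the slide as a block, -0.13 with probes above background on all arrays and 0.061 to 0.39 on leaving out a line. The 7 calls among the other lists were 4 with no filter or with probes above background on all arrays, 12 with a variance trend, 0 with genotype as a covariate and 0 to 7 on leaving out a line (0 without each line other than RF8). By the methods' t-test, 1 of these 7 list probes was still called, that of Pdgfra. The 28 chains above background in all lines were 11 where every probe had to be. The other settings left these values within 1.5 times or within the spread between lines, and no member probe named for its unadjusted p and above background on 1 array or more changed sign under the settings that kept it. The cause of these shifts was not tested, except that leaving out lines or probes leaves fewer to test.

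No paired analysis was possible because the labels number no replicates and the genotypes share only 1 line number (620). Signal over background limits the dim chains, since the detection limit was higher on slide 2. Group, slide and origin overlap in 5 lines, and 2 lines against 3 allow few degrees of freedom.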
